A study of Mus musculus with 6 samples.

Results

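The 6 genes *Kit*, *Stra8*, *Sohlh1*, *Sohlh2*, *Neurog3* and *Upp1* form the set of spermatogonial differentiation switch genes examined here. They were taken by name from the 53657 gene names counted in every sample, and were chosen with earlier results of these data known. All 6 were found and passed the filter on low counts. *Kit*, *Stra8*, *Sohlh1*, *Sohlh2* and *Upp1* are also among the differentiation markers that the study displayed for these same samples, so a common direction of these 5 genes is not independent evidence.

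RNA was sequenced from tdTomato-positive, MCAM-bright cells of adult mouse testes, sorted 3 months after tamoxifen induction from 3 wild type (WT) mice and 3 mice with a heterozygous *Hras* G12V mutation (MUT). All 6 mice carried *Gfra1-creERT2*, a tamoxifen-activated Cre recombinase under the control of the *Gfra1* promoter, together with a floxed tdTomato reporter, and all received repeated courses of tamoxifen. The MUT mice also carried the *FR-Hras* G12V allele, in which Cre removes a wild-type copy of *Hras* and so switches on the mutated copy behind it. WT mice were littermates without that allele, on the same mixed genetic background. The mutation was thus induced in cells in which the *Gfra1* promoter was active and was passed on to the progeny of those cells. Counts of the whole *Hras* gene do not tell the alleles apart and check no label. The study itself called the variant in the sequenced reads, and inferred that most of the sorted MUT cells carried it.

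MCAM is a surface protein that is bright on undifferentiated spermatogonia (A undiff), the population that contains the spermatogonial stem cells. These cells keep themselves under GDNF, which acts through the receptors GFRA1 and RET, and leave the undifferentiated state in response to retinoic acid. At that step they switch on KIT, the receptor for stem cell factor, and STRA8, a retinoic acid responsive protein that is later needed for entry into meiosis. SOHLH1 and SOHLH2 are germ cell transcription factors of the basic helix-loop-helix class that act early in spermatogonial differentiation and are needed for normal *Kit* expression. NEUROG3, of the same class, marks progenitors that have left the stem cell state but have not yet differentiated. UPP1 is uridine phosphorylase, an enzyme of pyrimidine salvage.

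The 250 bases before the annotated starts of these genes were read from the RefSeq promoter table of GRCm38.p6, which held 9 starts for the 6 genes. Both strands were searched for the E-box CANNTG, the core that basic helix-loop-helix factors bind, for its palindromic form CACGTG, and for AGGTCA, the core hexamer bound by nuclear receptors such as the retinoic acid receptors. The stretches below are shown because they hold the AGGTCA hexamers of *Stra8* and the cluster of E-boxes of *Sohlh1*, with *Kit* beside them. The *Kit* stretch ends before the first exon base, and those of *Stra8* are short because its window lies in an exon. Capitals mark CANNTG and AGGTCA.
*Stra8* (chr6:34920744-34920769, plus strand): tggggtgaaaAGGTCAtcttgctcct
*Stra8* (chr6:34920900-34920925, plus strand): ctggggtaccAGGTCAgttttttacc
*Sohlh1* (chr2:25847249-25847498, minus strand): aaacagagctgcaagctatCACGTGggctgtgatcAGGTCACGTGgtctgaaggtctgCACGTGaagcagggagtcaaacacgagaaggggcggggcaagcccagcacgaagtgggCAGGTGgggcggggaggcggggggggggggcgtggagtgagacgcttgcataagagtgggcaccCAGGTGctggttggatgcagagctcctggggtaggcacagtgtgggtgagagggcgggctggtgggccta
*Kit* (chr5:75574737-75574915, plus strand): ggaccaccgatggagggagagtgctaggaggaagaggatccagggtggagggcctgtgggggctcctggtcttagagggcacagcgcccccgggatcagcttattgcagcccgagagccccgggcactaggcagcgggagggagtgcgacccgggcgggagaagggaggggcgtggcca

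AGGTCA stood 2 times in the *Stra8* window, at positions -194 and -38 from the start, and 1 time in the *Sohlh1* window, where it shared 2 bases with an E-box. It was in 14.0% of all 32841 promoter windows of this length. CACGTG stood 3 times in the *Sohlh1* window, at -231, -211 and -192, while 6.02% of all windows held it at least 1 time and 0.0609% held it 3 times or more. The wider E-box CANNTG, which includes CACGTG, stood 5 times for *Sohlh1* and was in 66.2% of all windows. *Sohlh2* and *Neurog3* had 1 CANNTG each, the 3 windows of *Upp1* had 1, 1 and 2, and neither window of *Kit* had any of the 3 motifs. These are matches of letters within a short window and do not show binding. The motifs were chosen after the sequences had been seen, so the shares do not measure how unusual the matches are. The *Stra8* window lies wholly within an exon of the GENCODE annotation used for counting, since that annotation also has an earlier start.

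Depth was nearly even, between 22729292 and 23550433 counted fragments per sample, so that 3 counts correspond to 0.127 to 0.132 CPM (counts scaled to a common library size, with normalisation by TMM). The cells carried the RNA of spermatogonia in all 6 samples. *Dazl*, an RNA-binding protein of germ cells, had group means of 906.7 and 887 CPM in WT and MUT, and *Zbtb16*, a transcription factor of undifferentiated spermatogonia, had 394 and 420.4 CPM. Genes of other cells were also present. The 6 macrophage genes summed to between 582 and 1119 CPM, led by *Lyz2*, and were all highest in WT replicate 3, where 4 of the 5 spermatid genes were also highest. That sample held the highest value of 26.7% of all tested genes. The 6 Leydig cell genes summed to 67.3 CPM in MUT replicate 3 against 12.9 to 21.1 CPM in the other samples. Mast cells and some Leydig cells carry KIT. Of the 6 mast cell genes, *Cma1*, *Fcer1a* and *Ms4a2* were at 0 counts in every sample and the list summed to at most 0.128 CPM, in MUT replicate 3. *Kit* was highest in MUT replicate 2, where the Leydig cell sum was 13.5 CPM. The other lists varied less, with sums from 863 to 1172 CPM for 10 meiotic prophase genes, 30.9 to 51.3 CPM for 7 Sertoli cell genes, 34.7 to 44.5 CPM for 4 endothelial genes and 6.99 to 11.4 CPM for 4 peritubular myoid genes. Their part in the results below was not tested.

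Levels of different genes were compared per length, as RPKM (CPM divided by the exon length in kilobases). *Sohlh1* had the highest level, with a mean of 129 RPKM over the 6 samples and a range of 116 to 145. *Stra8* followed at 104 RPKM (88.2 to 134), and the ranges of these genes overlapped. *Sohlh2* was lower, at 47.0 RPKM (42.8 to 51.7), without overlap with *Stra8*. *Upp1* at 19.9 RPKM (16.6 to 23.1) and *Kit* at 18.1 RPKM (13.9 to 25.4) overlapped each other and lay below every sample of *Sohlh2*. *Neurog3* was lowest at 8.36 RPKM (7.53 to 9.45), below every sample of the others. *Sohlh1* thus ranked above 99.0% of the tested genes and *Neurog3* above 65.6%. The exon length of *Kit*, 8911 bases, is the union over all of its annotated transcripts, so a level per length is understated where some of those exons are little used.

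The question put to these genes was whether they differed between the genotypes and whether they were high in the same samples. All 6 had a positive log2 fold change in MUT against WT, between 0.022 and 0.36, and none passed the adjusted p of 0.1 in edgeR. Of the 19656 genes tested, 51.8% had a positive log2 fold change, and 0.0102% passed the adjusted p in either direction. None of the 6 passed in DESeq2 or in edgeR with the replicate number as a block either, where 0.0241% and 0.0661% of the genes tested did. The median log2 fold change of the 6 genes was 0.14, against 0.0066 over all tested genes. *Kit* and *Stra8* had an unadjusted p under 0.05, as had 1.34% of the tested genes with a higher level in MUT and 1.44% with a lower level. In such bulk samples, fewer cells of a type and less RNA per cell cannot be told apart.

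**Figure D1:**
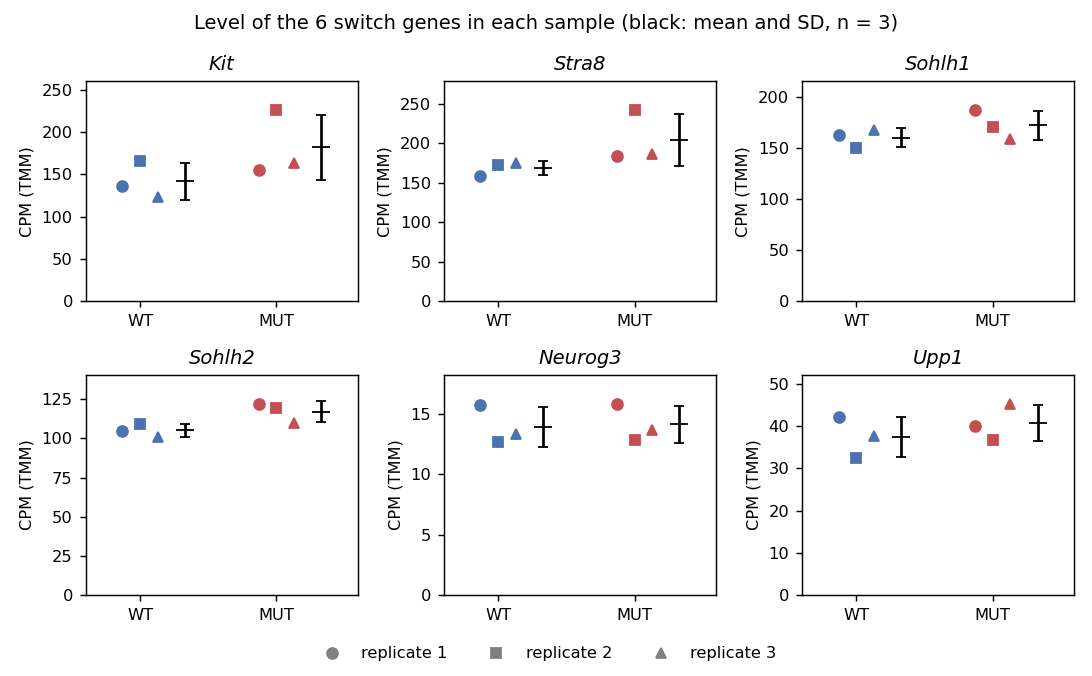
Level of each switch gene in CPM (y axis, from 0) in the 3 WT and 3 MUT samples, with the replicate number shown by the marker and the group mean and SD in black. *Stra8* and *Sohlh2* have every MUT sample above every WT sample, and *Kit* and *Stra8* have their highest value in MUT replicate 2.

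*Kit* (GRCm38 chromosome 5, 75574916 to 75656722, plus strand) was counted 3106, 3873 and 2924 times for WT, in the order of the replicates, and 3556, 5216 and 3832 times for MUT. Normalised, these were 136, 166 and 124 CPM for WT against 155, 226 and 164 CPM for MUT. MUT replicate 2 was well above the other samples, while WT replicate 2 lay above MUT replicates 1 and 3, so the groups overlapped. WT averaged 142 ± 21.6 CPM (SD, n = 3) and MUT 182 ± 38.7 CPM (SD, n = 3), a ratio of 1.28 (permutation test, exact and two-sided, p = 0.3). On the log2 scale the fold change came to 0.36 with a standard error of 0.158 and a 95% confidence interval of 0.00062 to 0.72, with an unadjusted p of 0.0497 and an adjusted p of 0.998 from edgeR's quasi-likelihood test. Without MUT replicate 2 it was 0.16 and the unadjusted p from edgeR was 0.252. Within each pair of samples of the same number *Kit* was higher in MUT, by 0.20, 0.45 and 0.41 in log2 CPM, and with the replicate block the adjusted p from edgeR was 0.243.

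*Stra8* (chromosome 6, 34920163 to 34939344, plus strand) stood at 159, 173 and 175 CPM for WT, replicate by replicate, against 185, 242 and 187 CPM for MUT, from 3638 to 5591 counts. Every MUT sample lay above every WT sample, with MUT replicate 2 well above the rest (permutation test, exact and two-sided, p = 0.1, which is the minimum for 3 against 3). Such a separation was seen in 4.69% of all tested genes. edgeR put the log2 fold change at 0.28, with a standard error of 0.111 and a 95% confidence interval of 0.023 to 0.53, with an unadjusted p of 0.0361 and an adjusted p of 0.998 from edgeR. WT averaged 169 ± 8.60 CPM (SD, n = 3) and MUT 205 ± 32.8 CPM (SD, n = 3). Without MUT replicate 2 the log2 fold change was 0.12 and the unadjusted p from edgeR 0.175.

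*Sohlh2* (chromosome 3, 55182028 to 55209957, plus strand) gave 105, 109 and 101 CPM for the WT replicates in order, and 122, 119.6 and 109.5 CPM for the MUT replicates. The groups did not overlap here either (permutation test, exact and two-sided, p = 0.1), although MUT replicate 3 exceeded WT replicate 2 by less than 1 CPM. edgeR put the log2 fold change at 0.16 ± 0.0688 (SE), with an unadjusted p of 0.0505 and an adjusted p of 0.998. WT averaged 105 ± 3.92 CPM (SD, n = 3) and MUT 117 ± 6.71 CPM (SD, n = 3).

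*Sohlh1* (chromosome 2, 25842995 to 25847248, minus strand), whose product pairs with SOHLH2, had overlapping groups. Its levels, replicate by replicate, were 163, 149.9 and 168 CPM for WT against 187, 170.0 and 159 CPM for MUT. MUT replicate 1 was highest, and MUT replicate 3 lay below WT replicates 1 and 3. edgeR put the log2 fold change at 0.10 ± 0.0822 (SE), with a 95% confidence interval of -0.083 to 0.29 and an adjusted p of 0.998. WT averaged 160.1 ± 9.21 CPM (SD, n = 3) and MUT 172 ± 14.3 CPM (SD, n = 3). The groups did not overlap once MUT replicate 3 was left out, at a ratio of means of 1.12 in place of 1.07.

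*Neurog3* (chromosome 10, 62133090 to 62134763, plus strand) gave 15.7, 12.6 and 13.3 CPM for WT, replicate by replicate, against 15.8, 12.8 and 13.7 CPM for MUT, from 295 to 362 counts. The same-numbered samples of the groups lay almost on each other, with differences of 0.0081, 0.021 and 0.039 in log2 CPM, and replicate 1 was highest in each group. edgeR put the log2 fold change at 0.022 ± 0.136 (SE) with an adjusted p of 0.998, and its 95% confidence interval of -0.29 to 0.33 leaves room for a ratio of 0.819 to 1.26. WT averaged 13.9 ± 1.64 CPM (SD, n = 3) and MUT 14.1 ± 1.56 CPM (SD, n = 3). Without WT replicate 2, WT replicate 3 or MUT replicate 1 the sign turned negative, at -0.055, -0.0072 and -0.076. An antisense gene overlapped 16.3% of its exon length, and since counting disregarded strand, fragments in that stretch were left out as ambiguous.

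*Upp1* (chromosome 11, 9118103 to 9136170, plus strand) gave 42.1, 32.5 and 37.6 CPM for the WT replicates in order, and 40.0, 36.8 and 45.4 CPM for the MUT replicates. Here MUT replicate 3 was highest and MUT replicate 2, the peak of *Kit* and *Stra8*, was the lowest MUT sample. The groups overlapped (log2 fold change 0.12, standard error 0.117, 95% confidence interval -0.14 to 0.39, adjusted p = 0.998 from edgeR). WT averaged 37.4 ± 4.81 CPM (SD, n = 3) and MUT 40.7 ± 4.33 CPM (SD, n = 3). No upper bound of the 6 intervals reached a 2-fold change, the highest being a ratio of 1.65 for *Kit*. Counting error was small beside these spreads for *Kit*, at 1.85% in the sample with the fewest counts against a coefficient of variation of 15.2% among WT samples and 21.3% among MUT samples. For *Neurog3* it was 5.82% against 11.8% and 11.0%.

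**Figure D2:**
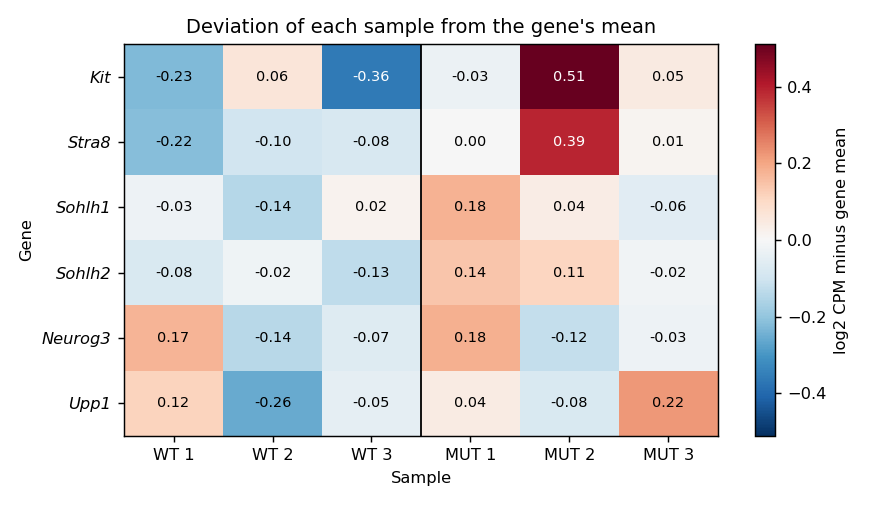
Deviation of each sample (columns, 3 WT then 3 MUT) from the gene's own mean over the 6 samples, in log2 CPM, for each switch gene (rows), with red above and blue below the mean. *Kit* and *Stra8* peak in MUT replicate 2 at 0.51 and 0.39, whereas *Neurog3* and *Upp1* lie below their means in that sample.

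Whether the genes were high together was then read sample by sample. In MUT replicates 1 and 2, 4 of the 6 genes lay above their own mean, in MUT replicate 3 it was 3, and in WT replicates 1, 2 and 3 it was 2, 1 and 1. Of all tested genes, 52.9%, 50.5% and 53.8% lay above their own mean in the MUT samples and 49.8%, 51.3% and 53.0% in the WT samples. The MUT counts of 3 and 4 of 6 are thus near the share over all genes, while the WT counts of 2, 1 and 1 lie below it. With 6 genes this difference was not tested. The mean deviation over the 6 genes was 0.085, 0.14 and 0.030 for the MUT replicates in order, against -0.043, -0.10 and -0.11 for the WT replicates. No gene had its highest value in a WT sample, and none its lowest in a MUT sample. MUT replicate 1 held the highest value of *Sohlh1*, *Sohlh2* and *Neurog3*, MUT replicate 2 that of *Kit* and *Stra8*, and MUT replicate 3 that of *Upp1*. The same 3 samples held the highest value of 16.4%, 16.1% and 14.6% of all tested genes, and the lowest value of 16.1%, 14.5% and 12.7%. The genes were thus not all highest in the same mouse.

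**Figure D3:**
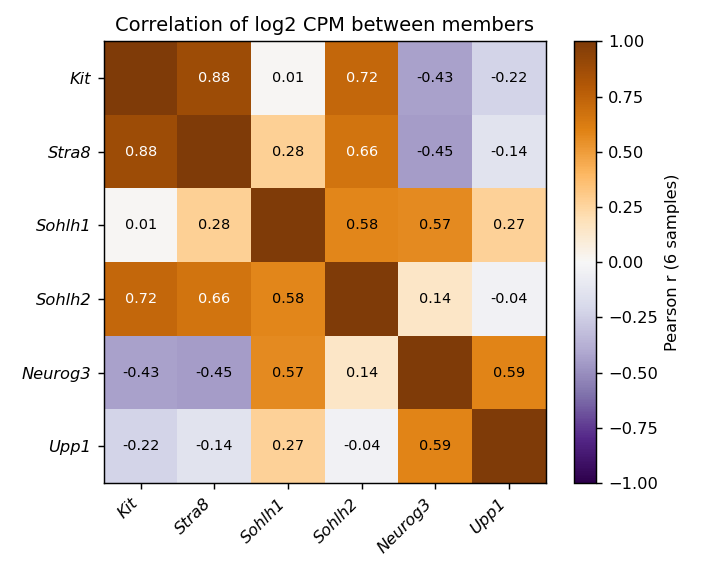
Pearson correlation of log2 CPM across the 6 samples for each pair of switch genes (rows and columns), from purple at -1 to brown at 1. *Kit*, *Stra8* and *Sohlh2* have values from 0.66 to 0.88 with each other, and *Neurog3* has negative values with *Kit* and *Stra8*.

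Correlations across the 6 samples separated the genes further. Of the 15 pairs, 10 had a positive Pearson r, with a median of 0.27 and a range of -0.45 to 0.88. *Kit* and *Stra8* had the highest, with r = 0.88 (exact permutation test, p = 0.0389, adjusted p = 0.583 over 15 pairs) and a Spearman rho of 0.54 (exact permutation test, p = 0.297, adjusted p = 0.699). None of the 15 pairs passed an adjusted p of 0.1 by either measure, and only *Kit* with *Stra8* had an unadjusted p under 0.05 for r. Among the 10582 other genes with at least 10 CPM, 2.02% had as high a correlation with *Kit* as *Stra8* had. Without the pair of samples farthest from the median of *Kit*, WT replicate 3 and MUT replicate 2, r for *Kit* and *Stra8* was 0.78, and without MUT replicate 2 alone it was 0.51.

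*Sohlh2* had r = 0.72 with *Kit* (rho = 0.60, exact permutation tests, p = 0.0903 and p = 0.242, adjusted p = 0.632 and 0.699) and r = 0.66 with *Stra8* (rho = 0.66, exact permutation tests, p = 0.144 and p = 0.175, adjusted p = 0.632 and 0.699). Without the pair of samples farthest from the median these became 0.32 and 0.60. *Sohlh1* had r = 0.58 with *Sohlh2* (rho = 0.49, exact permutation tests, p = 0.235 and p = 0.356), and 0.13 without MUT replicate 1, while r was 0.011 with *Kit* (rho = -0.14, exact permutation tests, p = 0.992 and p = 0.803). *Neurog3* and *Upp1* had a positive value with each other (r = 0.59, rho = 0.77, exact permutation tests, p = 0.232 and p = 0.103, adjusted p = 0.632 and 0.699) and, with 0.93, also without the pair of farthest samples, WT replicate 1 and MUT replicate 1. With *Kit*, *Neurog3* had r = -0.43 (rho = -0.54, exact permutation tests, p = 0.403 and p = 0.297), and -0.76 without the farthest samples. With *Stra8* it had r = -0.45 (rho = -0.086, exact permutation tests, p = 0.422 and p = 0.919), but 0.69 without WT replicate 1 and MUT replicate 2, so the negative sign rests on those samples. When each sample was set against its own group mean, so that the genotype did not enter, 8 of the 15 pairs were positive with a median of 0.076, *Kit* and *Stra8* kept r = 0.78, and *Kit* had r = -0.64 with *Neurog3* and -0.70 with *Upp1*.

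For each gene, the 3 genes of at least 10 CPM with the most similar pattern over the 6 samples were listed. For *Kit* they were *Mei1*, a meiosis gene (r = 0.99), *Pms2*, a mismatch repair gene (r = 0.99), and *Ppp2r1b*, a phosphatase subunit (r = 0.99). For *Stra8* they were *Phka1*, *Mlec* and *Trnp1* (r = 0.99 to 0.98), for *Sohlh1* *Rwdd3*, *Fdps* and *Tnip2* (0.98 to 0.97), and for *Sohlh2* *Slc38a10*, *Cul1* and *Ppat* (0.99 to 0.98). *Ahcyl1*, *H2afy2* and *Wnt5b* were most like *Neurog3* (0.99 to 0.98), and *Adamts2*, *Pecr* and *Gsn* most like *Upp1* (0.97 to 0.95). No switch gene was among the 3 nearest to another. With 10582 genes ranked on 6 samples, correlations of this size arise for every gene listed and are given as a description.

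**Figure D4:**
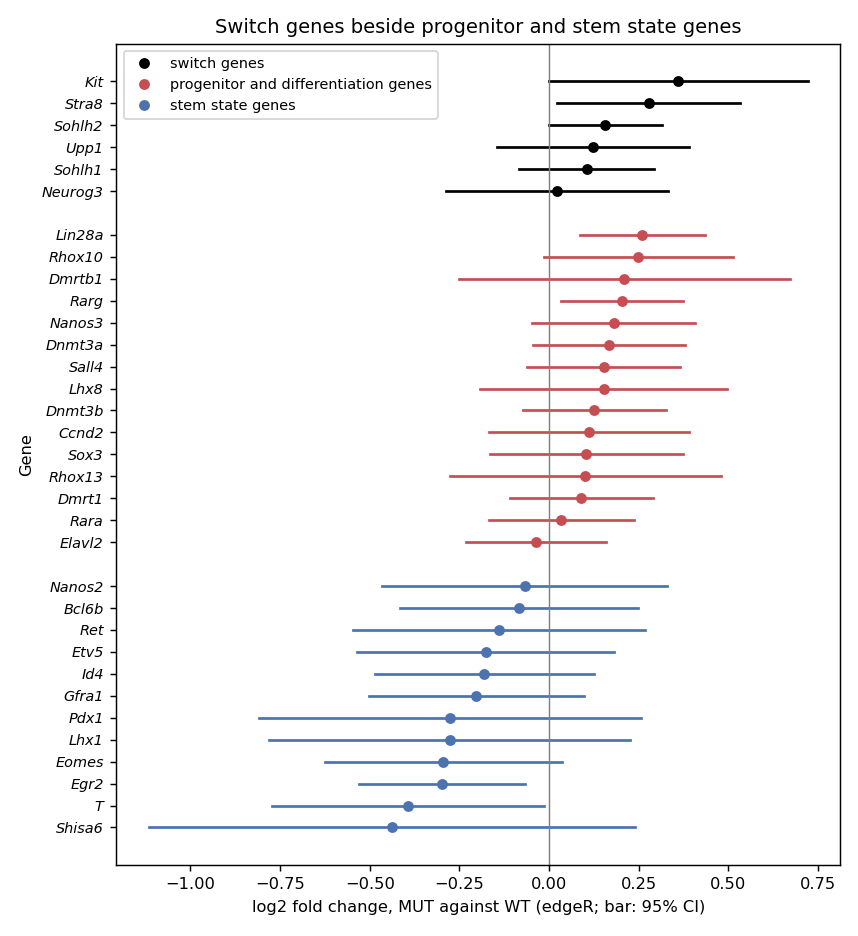
Log2 fold change of MUT against WT (x axis) with its 95% confidence interval from edgeR for the 6 switch genes, 15 progenitor and differentiation genes and 12 stem state genes. The switch genes lie from 0.022 to 0.36, and all 12 stem state genes lie below 0.

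The surrounding genes of the same step were taken from lists. Of 15 progenitor and differentiation genes, 14 had a positive log2 fold change, with a median of 0.15, and none passed the adjusted p in edgeR. The lowest unadjusted p-values belonged to *Lin28a*, an RNA-binding protein of progenitors (log2 fold change 0.26, 339.9 ± 14.0 CPM in WT and 407 ± 23.3 CPM in MUT, SD, n = 3; unadjusted p = 0.00861 from edgeR), and to *Rarg*, the retinoic acid receptor of spermatogonia (log2 fold change 0.20, 71.9 ± 5.90 CPM and 82.8 ± 0.934 CPM, SD, n = 3; unadjusted p = 0.0240 from edgeR). *Rhox10*, *Nanos3* and *Dnmt3a* followed with log2 fold changes of 0.25, 0.18 and 0.17. In *Lin28a*, *Rarg*, *Rhox10* and *Nanos3* every MUT sample lay above every WT sample, 4 of 15 genes where 4.69% of all tested genes did so. *Dmrtb1*, which acts at the exit from mitotic divisions, had the widest interval of the list (log2 fold change 0.21, 95% confidence interval -0.25 to 0.67). All 15 had a positive correlation with *Kit*, from 0.0085 to 0.93, with a median of 0.47. Over all tested genes 50.3% had a positive correlation with *Kit*, and so had all 6 tested Sertoli cell genes, with a median of 0.34. Several of these genes, *Lin28a* and *Rarg* among them, also belong to the markers the study displayed for these samples.

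The 12 stem state genes all had a negative log2 fold change, with a median of -0.24, and none passed the adjusted p in edgeR. A separate list of 6 undifferentiated spermatogonia genes, which also holds *Gfra1*, was split. Its log2 fold change was positive for 3 genes and negative for 3, with a median of -0.0055. *Egr2*, a transcription factor gene induced by GDNF (log2 fold change -0.30, 111 ± 5.77 CPM in WT and 90.6 ± 12.2 CPM in MUT, SD, n = 3; unadjusted p = 0.0173 from edgeR), was the 1 gene with every MUT sample below every WT sample, as were 3% of all tested genes. *T*, or brachyury, had a log2 fold change of -0.39 (unadjusted p = 0.0439 from edgeR). *Eomes*, a T-box factor of a stem cell subset, *Gfra1* and *Shisa6* followed at -0.30, -0.20 and -0.44. MUT replicate 2, the sample highest in *Kit* and *Stra8*, held the lowest value of 8 of the 12 genes and of 14.5% of all tested genes, and 11 of the 12 correlated negatively with *Kit*, as did 49.7% of all tested genes. Genes of other cell types did so as well, with 6 of 6 macrophage genes (median r = -0.49) and 5 of 5 spermatid genes (median r = -0.73). The 6 macrophage genes also all had a negative log2 fold change, with a median of -0.33, and their part in these values was not tested. All 12 are among the stem cell markers that the study displayed for these samples, so their shared direction is not independent evidence. They are only a part of those markers. *Pax7*, which the study reported as higher in MUT, is not on this list.

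The KIT signalling list holds the ligand and proteins that act behind the receptor. Of its 12 genes, 7 had a positive and 5 a negative log2 fold change, with a median of 0.017, and none passed the adjusted p in edgeR. *Akt1*, a kinase downstream of KIT, was the 1 gene of the list whose MUT values all exceeded its WT values. Of all tested genes, 4.69% separated in this way. *Akt1* averaged 152 ± 5.86 CPM in WT and 166 ± 7.80 CPM in MUT (SD, n = 3). Its log2 fold change was 0.13, with an unadjusted p of 0.0904 from edgeR. *Ptpn6*, a phosphatase that dampens KIT, and *Lyn*, a Src family kinase, had log2 fold changes of -0.36 and -0.37 (unadjusted p = 0.0857 and 0.192 from edgeR; for *Ptpn6* 0.0121 and an adjusted p of 0.483 with the replicate block), and both are abundant in blood cells. Both had their highest level in WT replicate 3, the sample with the highest macrophage gene sum. The part of such cells in these values was not tested. *Sos1* and *Grb2*, which link the receptor to Ras, had log2 fold changes of 0.10 and 0.063. *Kitl*, the ligand, which somatic cells make, was at 6.62 ± 1.13 CPM in WT and 7.10 ± 0.886 CPM in MUT (SD, n = 3), and the groups overlapped.

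**Figure D5:**
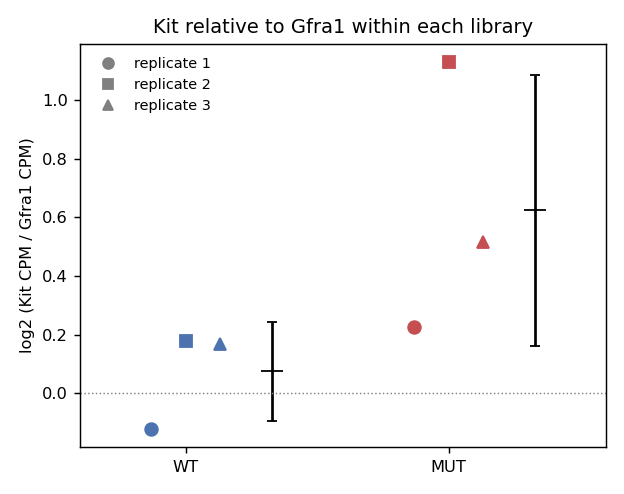
Log2 of the ratio of *Kit* CPM to *Gfra1* CPM (y axis) in each WT and MUT sample, with the replicate number shown by the marker and the group mean and SD in black. All 3 MUT samples lie above the 3 WT samples, from 0.23 in MUT replicate 1 to 1.13 in MUT replicate 2.

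*Kit* was finally set against *Gfra1*, the GDNF receptor of the stem cell state, within each library, where the scaling of the library cancels. The ratio of their CPM was 0.920, 1.13 and 1.12 for WT, replicate by replicate, against 1.17, 2.19 and 1.43 for MUT. Every MUT sample lay above every WT sample, by little for MUT replicate 1 and by most for MUT replicate 2. Both genes were chosen with earlier results of these data known, so this separation is not independent evidence. The share of other gene ratios that separate in this way was not computed. On the log2 scale WT averaged 0.075 ± 0.17 (SD, n = 3) and MUT 0.62 ± 0.46 (SD, n = 3), which differ by 0.55 (permutation test, exact and two-sided, p = 0.1, which is the minimum for 3 against 3). *Gfra1* itself averaged 135 ± 21.3 CPM for WT against 117 ± 14.9 CPM for MUT (SD, n = 3; log2 fold change -0.20, adjusted p = 0.998 from edgeR). Without MUT replicate 2 the difference in the log2 ratio was 0.30, from 3 WT and 2 MUT samples (permutation test, exact and two-sided, p = 0.1). That p is the minimum for 3 against 2, so it cannot be set against the p from all samples. Within the pairs of the same number it was 0.35, 0.95 and 0.35.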

How the data were processed

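For each of the 6 samples the authors deposited unnormalised counts, in fragments by gene name, made with featureCounts 1.6.2 on the exons of a GENCODE annotation with tdTomato added, on GRCm38, after alignment with STAR per the submitters' processing notes (version not given in the sources used here). The library kit keeps strand, but counting disregarded it, multi-mapping and ambiguous fragments were left out, and nothing was normalised or pooled. Groups came from the sample titles. The columns were joined by gene name, and edgeR 4.0.16 (R 4.3.3) applied TMM, filterByExpr and its quasi-likelihood test of MUT against WT, with Benjamini-Hochberg adjustment over the 19656 genes kept and a threshold of 0.1, the FDR of the study. Log2 CPM used a prior count of 2. Standard errors were derived from the fold change and F statistic. Tests on a single value were exact permutation tests, two-sided. DESeq2 1.42.0 and limma 3.58.1 (voom) were alternatives.

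The members and gene lists were chosen with earlier results of these data known, and the motifs after the promoter sequences had been seen. Named genes were the members, *Gfra1*, up to 5 genes of lowest p per list, genes of a list whose groups did not overlap where these were 5 or fewer, the 3 genes most like each member, and the highest gene of the cell type lists; *Dmrtb1*, *Kitl*, *Zbtb16*, *Tnp1* and the mast cell genes at 0 were added after their values were seen. Samples of the same number deviated together from their group means over 10583 genes (correlations 0.30, 0.16 and 0.40). WT replicate 2 and MUT replicate 1, of different numbers, had 0.33, so not every sample was most like its own number. As each same-numbered pair exceeded 0.1 and the labels give the numbers, these were treated as pairs in the alternative fit. The correlations do not settle that the numbers mark pairs of mice. Nothing in the labels says more about the mice behind the numbers. The fits were tested on simulated counts.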

Additional observations from a re-analysis of the deposited data

How the results depend on the processing

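None of the 6 genes passed an adjusted p of 0.1 with DESeq2 or limma voom, or in edgeR with DESeq2 size factors, no filter or at least 10 counts in every sample, or in edgeR or DESeq2 with the replicate block, or in edgeR when a mouse was left out. The lowest adjusted p was 0.132, for *Kit* with the replicate block in DESeq2. Leaving out each mouse in turn, the log2 fold change ran from 0.16 to 0.48 for *Kit* and 0.12 to 0.34 for *Stra8* (both lowest without MUT replicate 2), 0.032 to 0.16 for *Sohlh1*, 0.12 to 0.20 for *Sohlh2*, 0.019 to 0.21 for *Upp1*, and -0.076 to 0.11 for *Neurog3*, the 1 gene whose sign turned. The number of positive pairs ran from 9 to 11 of 15, the median correlation from 0.10 to 0.34, and the difference in the log2 ratio of *Kit* to *Gfra1* from 0.30 to 0.75 (0.55 with the replicate block, exact sign-flip permutation test, p = 0.25, the smallest that 3 pairs allow).

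Over all genes, edgeR called 2, both lower in MUT. The count was 9 with DESeq2, 4 with limma voom, 5 without a filter, 0 with at least 10 counts in every sample in edgeR (479 genes at an unadjusted p under 0.05), 1 at an adjusted p of 0.05, while the replicate block gave 13 in edgeR and 55 in DESeq2. Leaving out each mouse in turn gave 0 to 6, with 0 without MUT replicate 2 (292 genes at an unadjusted p under 0.05 in edgeR), 1 without MUT replicate 1, 5 without WT replicate 3 and 6 without MUT replicate 3. The block changed no call among the 6 genes. The cause of these changes was not tested. With 3 mice per group, an exact two-sided test between the groups cannot go below p = 0.1. Counting error covers depth only, and PCR duplicates were not separable. The separation of the groups without each mouse, which can only turn from overlap to none, and the single correlations without each mouse were added after seeing the data.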

Other observations

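Of the 10 meiotic prophase genes, 9 had their lowest value in WT replicate 1 and 6 their highest in WT replicate 3. Over all tested genes these shares were 18.9% and 26.7%. The 10 meiotic prophase genes had a median log2 fold change of 0.045, with no gene past the adjusted p in edgeR. Their correlation with *Kit* was positive for 5 genes and negative for the other 5. The 5 spermatid genes, protamines and transition proteins among them, all had a negative log2 fold change, with a median of -0.56, and none passed the adjusted p in edgeR without the replicate block. With the block, *Tnp1*, a transition protein gene, passed in edgeR (log2 fold change -0.59 without the block, adjusted p = 0.0794 with it), and the other 4 did not. Their sum was 1156, 857 and 1459 CPM for the WT replicates in order, against 593, 620.2 and 1131 CPM for MUT, so the groups overlapped, while the MUT sample was the lower one in all 3 pairs of the same number.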
